A study of Mus musculus with 12 samples.

Results

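Normal maturation of the mouse duodenum was followed here between postnatal day 15 and postnatal day 30 in wild type animals of strain 129. The comparison used 6 of the 12 arrays of the study, 3 of wild type duodenum at day 15 and 3 at day 30, and covered all 19938 genes that had a feature with exactly 1 gene symbol. A gene with several such features was represented by the brightest of them, averaged across the 12 arrays. The other 6 arrays were of strain 129 mice in which Onecut2, a cut homeodomain transcription factor gene, had been ablated, at the same ages, 3 arrays each. They shared in the estimate of the spread and served as a separate age comparison. All animals were untreated. Each array held RNA of a duodenal segment pooled from 5 to 8 mice of both sexes, so the 3 arrays of a group were 3 pools and not 3 animals. Values are log2 expression values, on which a difference of 1 is a 2-fold change. A gene was called when its Benjamini-Hochberg adjusted p from limma, over all 19938 genes, was below 0.05, and rose or fell is written only of called genes.

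At day 15 a mouse pup lives on milk, and at day 30 it is weaned onto solid food. The suckling enterocyte takes up intact milk proteins by endocytosis, digests lactose, and handles a diet rich in fat and poor in starch. Around weaning it loses these functions, gains sucrase and other enzymes of the adult diet, and meets a growing microbiota, while Paneth cells, lymphocytes and plasma cells fill the crypts and the mucosa.

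Markers of the duodenum were present at both ages. Pdx1, the homeodomain factor gene of duodenum and pancreas, lay at 10.01, 10.02 and 9.87 at day 15 and at 10.35, 10.38 and 10.57 at day 30, and the enterocyte gene Vil1 lay between 12.58 and 12.79 on all 6 arrays. Fabp6, the ileal bile acid binding protein gene, lay between 4.71 and 4.96, Hoxb13 of the hindgut between 5.98 and 6.24, and Alb of the liver between 5.54 and 5.92. The mean log2 value over 16 stomach and Brunner gland genes was higher, between 9.2 and 9.6, and this list does not separate stomach from Brunner gland. Pancreatic RNA was present at both ages, and its amount was not even. The mean log2 value over 16 acinar genes was 12.36, 12.29 and 12.27 at day 15 and 12.32, 13.10 and 12.59 at day 30, so replicate 2 of day 30 stood highest. Xist, the RNA of the inactive X chromosome, lay at 11.37, 10.25 and 10.93 at day 15 and at 9.26, 10.67 and 9.53 at day 30, and the Y-linked gene Kdm5d ran opposite to it, so the proportion of the sexes differed between pools. Xist was itself called lower at day 30. The mix of sexes was therefore not even between the ages and cannot be fully told apart from age. Onecut2 itself did not pass in wild type, at 9.55, 9.69 and 9.68 at day 15 and at 9.63, 9.50 and 9.62 at day 30 (adjusted p = 0.52). Ada, the adenosine deaminase gene with a known duodenal enhancer, went from 12.25, 12.51 and 11.97 to 12.68, 13.02 and 13.03, a rise of 0.67.

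Between the ages 2455 genes rose and 3394 fell, which is 12.3% and 17% of all genes and 29.3% together. Most changes were small against the span of the array. The median size was 0.34 among the genes that rose and 0.38 among those that fell, beside a median standard error (SE) of 0.08. Changes of at least 2-fold were called for 410 genes (2.06%), 196 higher (0.983%) and 214 lower (1.07%) at day 30, changes of at least 4-fold for 48 higher (0.241%) and 40 lower (0.201%), and changes of at least 8-fold for 18 in each direction (0.0903%). At an unadjusted p under 0.05 there were 7805 genes (39.1%). The 3 values at one age lay entirely above the 3 at the other for 8738 genes (43.8%). The share of genes called grew with the level, from 8.89% in the lowest of 4 equal groups by mean value to 46.4% in the highest.

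**Figure D1:**
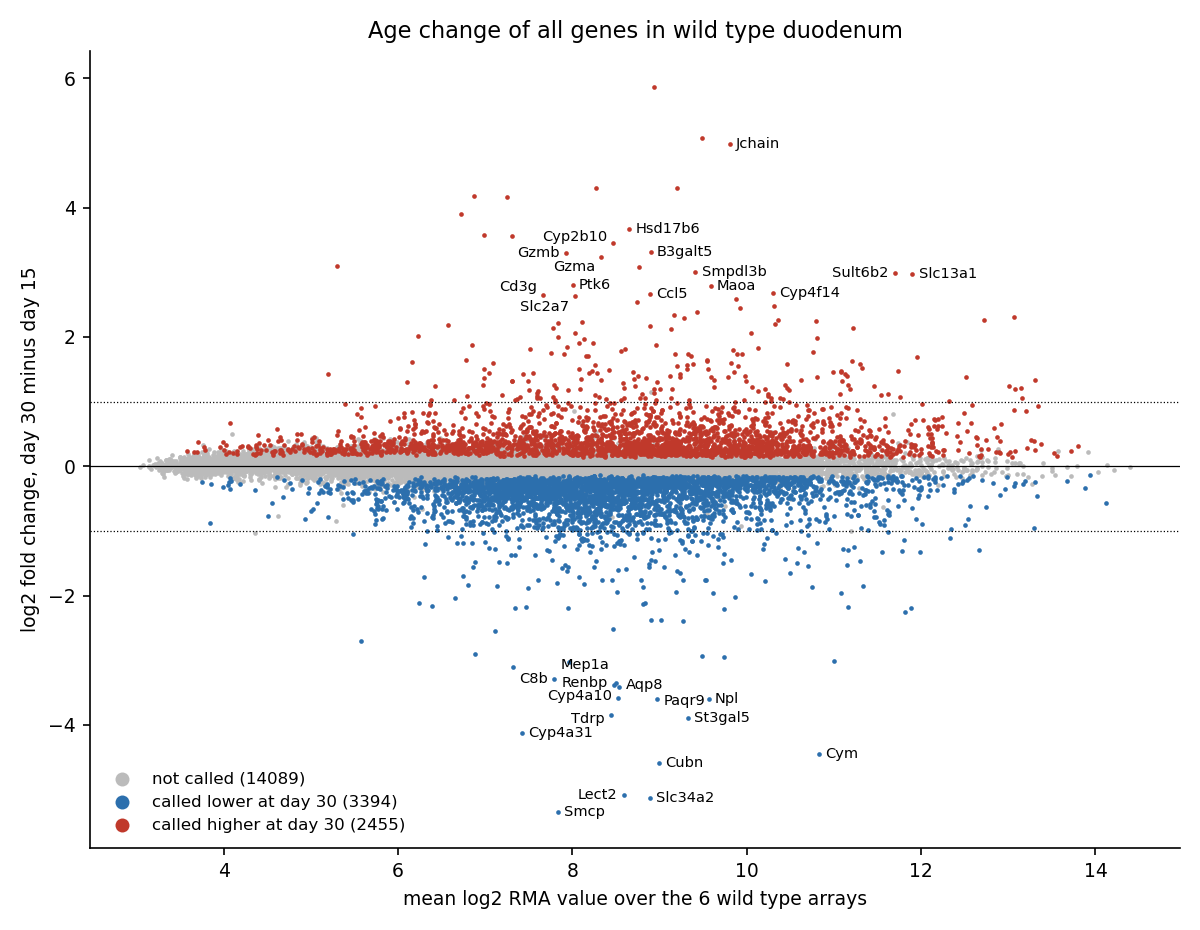
Log2 fold change from day 15 to day 30 (y axis) against the mean log2 value over the 6 wild type arrays (x axis) for 19938 genes, with 2455 called higher in red, 3394 called lower in blue and the rest in grey. Dotted lines mark a 2-fold change; the 30 genes with the largest changes are named, and unnamed points beyond them are antigen receptor segments or predicted genes.

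The balance between rises and falls depended on how arrays were scaled. With the deposited scaling 42% of the calls were rises, with each array centred on its median 60.4%, and with each centred on the cytosolic ribosomal protein genes 68.4%. These centrings moved the median change of all genes from 0.02 to 0.08 and to 0.11, so a change of that size has no firm sign. Smooth muscle genes also moved with age: their mean log2 value over 16 genes was 10.34, 10.35 and 10.43 at day 15 and 9.69, 9.87 and 9.78 at day 30. With that mean as a covariate 108 genes were called (0.542%), 103 of them shared with the calls without it in the same direction, and 284 of the 331 named genes that had been called lost the call. Since the mean separates the ages completely, age and the share of muscle cannot be told apart in such a fit. In bulk RNA, fewer cells of a type and less RNA per cell cannot be told apart either. With Xist as a covariate 3829 genes were called, and 43 named genes lost the call, Xist itself among them and also Ada, Anpep, Asl, Cyp1a1, Hnf4a, Ppara, Tap1 and Vil1.

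The 15 largest falls came from many functions. Smcp, a gene best known for a capsule protein of sperm mitochondria, lay at 10.27, 10.55 and 10.69 at day 15 and at 5.33, 4.86 and 5.30 at day 30, a 40.5-fold fall (log2 fold change -5.34, SE 0.14, adjusted p = 1.2e-10). Every day 15 pool was near the same high level and every day 30 pool far below it. Slc34a2, a sodium phosphate cotransporter gene, went from 11.26, 11.51 and 11.59 to 6.58, 6.24 and 6.14, a 35.2-fold fall. Lect2, which encodes a secreted chemotactic protein, fell by 5.08, and Tdrp, a nuclear protein gene named from testis, fell by 3.85. Cyp4a31 and Cyp4a10, fatty acid hydroxylase genes, had log2 fold changes of -4.12 and -3.59. Npl, which cleaves sialic acid, went from 11.05, 11.44 and 11.60 to 7.74, 7.76 and 7.77, and Renbp, an epimerase of N-acetylglucosamine, fell by 3.38. Paqr9, a membrane protein of the progestin receptor family, fell by 3.60 and the water channel gene Aqp8 fell by 3.41. The complement gene C8b fell by 3.28, and Mep1a, which encodes a subunit of the brush-border protease meprin, fell by 3.36.

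Immunoglobulin and cytotoxic genes were prominent among the largest rises. Jchain, which joins polymeric immunoglobulins, lay at 6.47, 7.53 and 7.94 at day 15 and at 12.25, 12.21 and 12.43 at day 30, a 31.7-fold rise (log2 fold change 4.98, SE 0.30, adjusted p = 9.5e-08). Its day 15 pools were spread over more than a log2 unit while the day 30 pools were close together, and the ages did not overlap. Gzmb and Gzma, granzymes of killer lymphocytes, rose by 3.30 and 3.24, Ccl5, a T cell chemokine, by 2.66 and Cd3g, a chain of the T cell receptor complex, by 2.65. Epithelial enzymes made up most of the others. Hsd17b6, a hydroxysteroid dehydrogenase gene, went from 7.06, 6.995 and 6.40 to 10.58, 10.40 and 10.47, a 12.7-fold rise. B3galt5, a galactosyltransferase gene, rose by 3.31, Smpdl3b, a membrane phosphodiesterase gene, by 3.01, Sult6b2, a sulphotransferase gene, by 2.98, and Maoa, which breaks down monoamines, by 2.78. Ptk6, an epithelial tyrosine kinase gene, rose by 2.80 and Cyp4f14, a P450 gene of fatty acid and eicosanoid hydroxylation, by 2.68.

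Genes of the suckling enterocyte's uptake machinery fell in part. Of 16 measured genes of apical endocytosis, 8 fell and 1 rose, with a median change of -0.23 beside 0.02 for all genes. Cubn, the receptor gene for vitamin B12 bound to intrinsic factor and for albumin, went from 11.19, 11.35 and 11.34 to 6.95, 6.34 and 6.81, a 24.2-fold fall. Dab2, an endocytic adaptor gene, fell by 1.94, a log2 fold change that becomes -0.88 when its features are averaged. Amn, the membrane anchor of cubilin, had a change of -0.19 (adjusted p = 0.18) and Lrp2, the megalin receptor gene, one of -0.01 at values near 6, so the partners of Cubn were not called. Lysosomal enzymes followed on a smaller scale: 20 of 31 fell, 2 rose and the median was -0.27. Ctsl, a cysteine protease gene, went from 11.31, 11.49 and 11.60 to 9.78, 9.95 and 10.06, Neu1, a sialidase gene, fell by 1.28 and Glb1, a beta-galactosidase gene, by 0.91. Ctsc, which activates granzymes, rose by 0.44.

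Milk digestion showed no common direction, with 3 of 13 genes lower and 2 higher. Cym, the milk-clotting protease gene of the stomach, went from 12.89, 13.09 and 13.17 to 8.77, 8.53 and 8.50 in these duodenal segments. Mgll, a monoglyceride lipase gene, fell by 0.91 and Lpl, lipoprotein lipase, by 0.75, while Ces1f, a carboxylesterase gene, rose by 2.38. Growth genes of fetal and early postnatal life fell more evenly. Of 17 measured, 13 fell and 0 rose, with a median of -0.93, and 7 of them fell at least 2-fold. Cdkn1c, an imprinted inhibitor of cyclin-dependent kinases, went from 10.26, 10.50 and 10.43 to 8.53, 8.76 and 8.61. Plagl1, an imprinted zinc finger gene, fell by 1.57, Meg3, an imprinted long RNA, by 1.14, Grb10, an inhibitor of insulin signalling, by 1.00 and Igf2, the fetal growth factor gene, by 0.93. Dlk1, the imprinted neighbour of Meg3, had a change of 0.08 (adjusted p = 0.57). The fibroblast, muscle and vessel genes described further on fell at the same time, and their part in these falls was not tested.

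Genes of glucose production were split between falls and rises. Pck1, which makes phosphoenolpyruvate, lay at 12.48, 12.54 and 12.49 at day 15 and at 9.38, 9.92 and 9.19 at day 30, an 8.04-fold fall (log2 fold change -3.01, SE 0.16, adjusted p = 3.1e-08). G6pc, glucose 6-phosphatase, went from 11.10, 11.27 and 11.29 to 8.05, 8.50 and 8.26, Fbp1, fructose bisphosphatase, fell by 1.97 and Slc37a4, the glucose 6-phosphate carrier, by 1.28. Pcx, pyruvate carboxylase, rose by 1.37 and Got1, an aspartate aminotransferase gene, by 1.12. In all 6 of 12 gluconeogenesis genes fell and 4 rose.

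Arginine supply showed a similar split. The neonatal gut makes citrulline and arginine from glutamine and proline, and of 13 genes of this route 8 fell and 3 rose. Oat, ornithine aminotransferase, went from 12.62, 12.59 and 12.76 to 11.33, 11.23 and 11.40, and Aldh18a1, which makes the precursor of ornithine, fell by 1.15. Cps1, carbamoyl phosphate synthetase, fell by 0.25 and Asl, argininosuccinate lyase, by 0.26, values of -0.16 and -0.17 when arrays are centred on ribosomal protein genes, while Otc had a change of 0.15 (adjusted p = 0.18). Arg2, the mitochondrial arginase gene, which breaks arginine down, went from 10.86, 10.28 and 9.89 to 11.79, 11.77 and 11.88. Its day 15 pools spread over nearly a log2 unit, with replicate 1 closest to day 30.

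Fatty acid oxidation fell almost as a whole. Of 25 genes of mitochondrial and peroxisomal fatty acid oxidation 23 fell and 1 rose, with a median of -0.56, and in all 25 the ages did not overlap, beside 43.8% of all genes. Acot1, an acyl-CoA thioesterase gene, went from 9.57, 9.49 and 9.37 to 6.39, 6.44 and 6.50, the largest fall of the group, and Acot2 fell by 2.02. Cpt1a, the carnitine transferase that admits fatty acids to mitochondria, fell by 0.74, to 11.16, 11.24 and 11.37 at day 30. In a list of the gene of the fatty acid receptor PPAR alpha and its target genes outside fatty acid oxidation, 11 of 15 fell with none higher, Ppara itself among them by 0.33 (adjusted p = 0.0088). Plin2, which coats lipid droplets, fell by 1.85, Pdk4, which restrains glucose oxidation, by 1.67 and Angptl4, an inhibitor of lipoprotein lipase, by 0.78.

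Ketone genes did not move together. The shared thiolase gene Acat1 and the dehydrogenase genes Bdh1 and Bdh2 fell, by 1.25, 1.06 and 0.61. Oxct1, the transferase gene needed to use ketone bodies as fuel, went the other way, from 9.05, 9.11 and 9.06 to 11.52, 11.63 and 11.52, a 5.59-fold rise (log2 fold change 2.48, SE 0.05, adjusted p = 5.5e-11). The pools of each age lay close together and far from those of the other age. Glycolysis moved up in small steps, with 10 of 14 genes higher, 2 lower and a median of 0.30. Slc16a3, a lactate exporter gene, rose by 1.19, Hk2, a hexokinase gene, by 0.62 and Pfkp, a phosphofructokinase gene, by 0.60, whereas Pfkm, the muscle phosphofructokinase gene, fell by 0.64. Of 28 respiratory chain genes 8 rose, by at most 0.49, and 0 fell, 28.6% called beside 29.3% of all genes.

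Absorption of dietary fat fell in 12 of 19 genes and rose in 3, with a median of -0.34. Apoc3, an apolipoprotein gene of triglyceride-rich particles, went from 12.84, 13.04 and 13.06 to 10.90, 10.64 and 10.81. Fabp2, the intestinal fatty acid binding protein gene, went from 13.32, 13.31 and 13.29 to 12.14, 11.78 and 12.12. Within the final step of triglyceride synthesis the enzymes parted, Dgat2 falling by 1.30 and Dgat1 rising by 0.35. Apoa4 and Apob, apolipoproteins of chylomicrons, fell by 0.57 and 0.46 from values above 13, where an array responds less than fully. Mogat2, the monoacylglycerol acyltransferase gene, had a change of 0.12 (adjusted p = 0.19).

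Vitamin A handling fell in 8 of 16 genes and rose in 0. Lrat, which stores retinol as ester, went from 9.82, 9.86 and 9.85 to 8.59, 8.68 and 8.70. Aldh1a2 and Aldh1a3, retinaldehyde dehydrogenase genes, fell by 1.16 and 0.84, and Rbp2, the retinol binding protein gene of enterocytes, by 0.23, a call that ends when arrays are centred on ribosomal protein genes (adjusted p = 0.059).

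Lactase and sucrase-isomaltase, whose genes mark the change of diet, carried promoter windows that are printed here because Cdx2 and HNF1 sites are known to control both. They are the 250 bases before the start of each gene, from RefSeq on GRCm38.p6, at chr1:128328319-128328568 and chr3:72967864-72968113, both read on the minus strand. Capitals mark matches on either strand to a CDX motif, TTTATNG, or an HNF1 motif, GTTAATNAT.
Lct: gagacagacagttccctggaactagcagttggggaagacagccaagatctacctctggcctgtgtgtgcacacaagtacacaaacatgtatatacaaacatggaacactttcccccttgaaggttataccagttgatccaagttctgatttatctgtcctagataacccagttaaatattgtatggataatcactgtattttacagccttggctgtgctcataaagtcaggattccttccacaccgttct
Sis: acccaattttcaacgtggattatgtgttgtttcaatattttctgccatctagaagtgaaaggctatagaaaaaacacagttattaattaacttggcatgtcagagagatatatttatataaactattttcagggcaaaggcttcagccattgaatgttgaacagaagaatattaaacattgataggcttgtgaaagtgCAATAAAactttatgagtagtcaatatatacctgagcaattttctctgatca
The Sis window held 1 CDX match, and these letters are not in the Lct window. Over all 15614 genes with a window of 300 bases (250 before to 50 after the start), 10.6% held the CDX letters and 0.801% the HNF1 letters. Among genes that changed at least 2-fold the CDX share was 16.9% for rises and 16.1% for falls. For the HNF4 letters CAAAGNCCA it was 4.73% (7 of 148 genes) and 7.1% (11 of 155) beside 2.15% of all genes. Over all called genes the shares lay nearer those of all genes. They were 10.4% of rises and 8.44% of falls for CDX, and 2.48% and 2.35% for HNF4. A match describes the sequence and is not a shown site.

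The sugar genes themselves moved in opposite directions. Lct lay at 12.90, 12.95 and 12.99 at day 15 and at 10.998, 10.34 and 10.73 at day 30, a 4.77-fold fall (log2 fold change -2.25, SE 0.14, adjusted p = 1.6e-07). Sis went from 12.08, 11.83 and 11.57 to 13.23, 13.14 and 13.23, a 2.59-fold rise, and Treh, which splits trehalose, from 8.59, 8.30 and 8.06 to 10.10, 10.04 and 9.998. The ages did not overlap in any of these, and for Sis and Treh replicate 1 of day 15 lay nearest to day 30. Slc2a7, a hexose transporter gene, rose by 2.62, the fructose transporter gene Slc2a5 by 0.99 and the sodium glucose cotransporter gene Slc5a1 by 0.82. Ketohexokinase, Khk, had a change of -0.15 (adjusted p = 0.15). Over the list of 15 genes 6 rose and 1, Lct, fell.

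**Figure D2:**
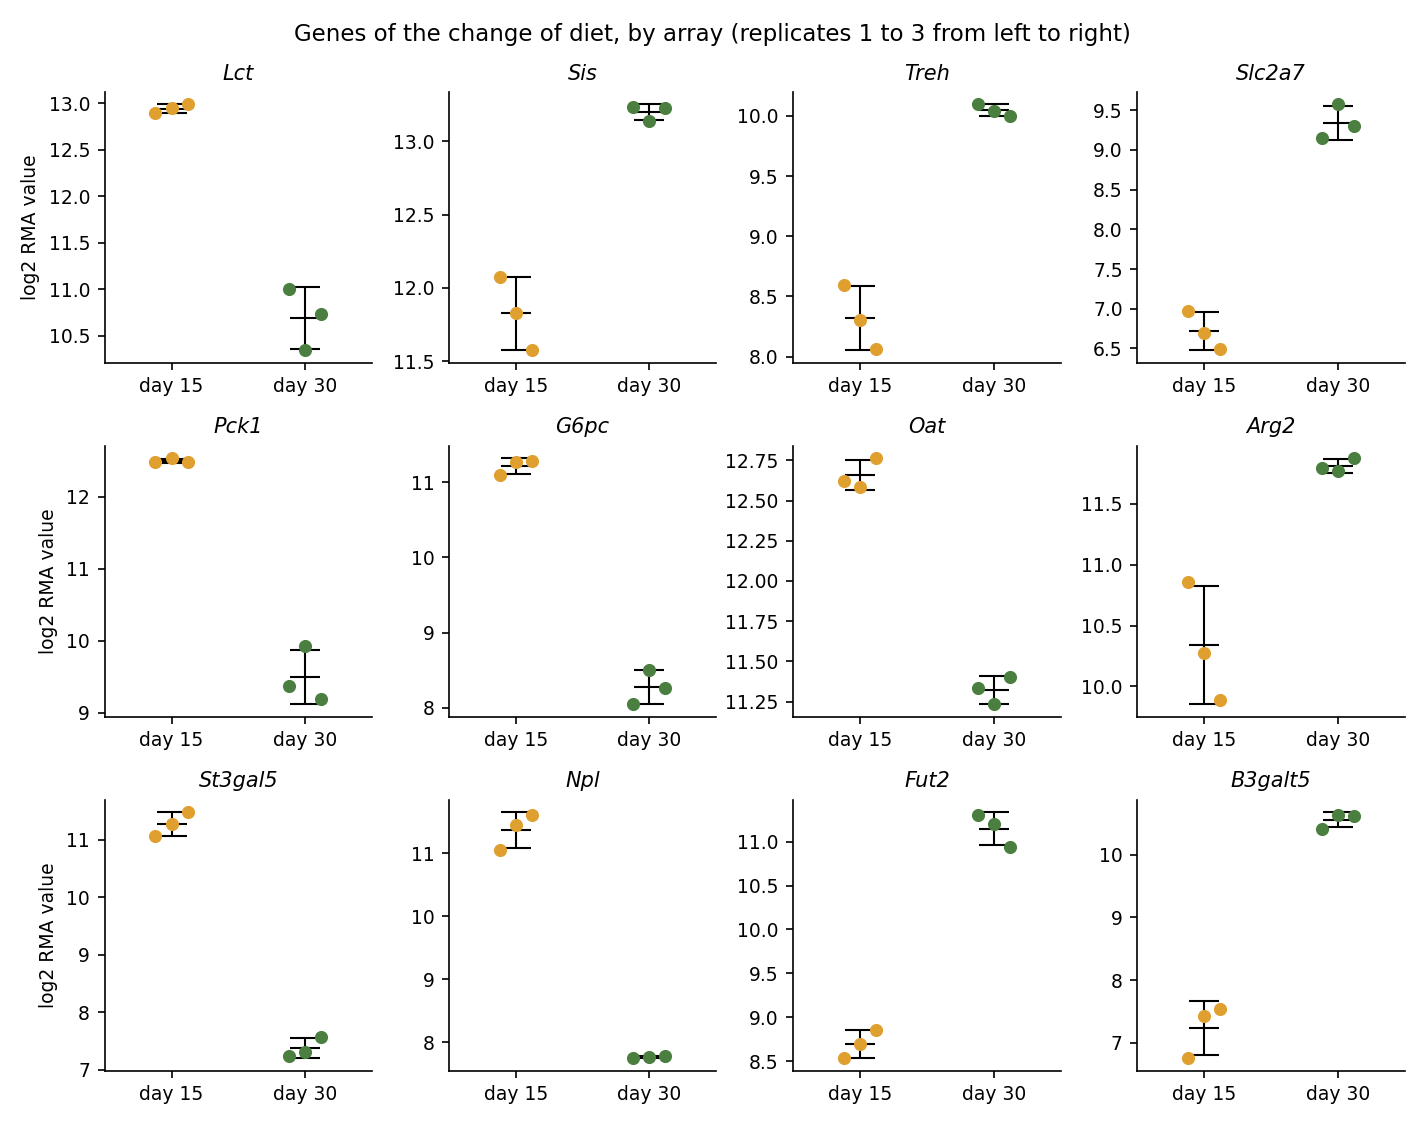
Log2 values (y axis) of 12 genes of sugar digestion, gluconeogenesis, arginine metabolism and glycan synthesis on each wild type array at day 15 (orange) and day 30 (green), a point for each pool, with the group mean and SD as bars; the y axes do not start at 0. The ages do not overlap in any of the 12, and the day 15 pools spread most for Arg2, from 9.89 to 10.86.

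Cholesterol synthesis and uptake was the list of the weaned gut with the most even rise. All 20 measured genes rose, beside 12.3% of all genes, with changes from 0.26 to 1.46 and a median of 0.71. Cyp51, the lanosterol demethylase gene, went from 7.83, 7.93 and 8.13 to 9.34, 9.43 and 9.51. Idi1, which isomerises isopentenyl diphosphate, rose by 1.45, Sqle, the squalene epoxidase gene, by 1.38, Msmo1, a methylsterol oxidase gene, by 1.24 and Srebf2, the transcription factor gene that drives the pathway, by 0.86. Hmgcs1, the synthase gene at the start of the route, named here for its promoter after its value had been seen, rose by 0.94. Fatty acid and phospholipid synthesis had no such direction, with 6 of 19 genes higher and 6 lower and Fasn, the fatty acid synthase gene, higher by 0.57.

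The promoter of Hmgcs1 is shown as the only window among those of 16 cholesterol genes that held the sterol response letters TCACNCCAC, here in capitals, against 1.4% of all genes. It lies at chr13:119690101-119690350 on the plus strand of GRCm38.p6, from RefSeq.
Hmgcs1: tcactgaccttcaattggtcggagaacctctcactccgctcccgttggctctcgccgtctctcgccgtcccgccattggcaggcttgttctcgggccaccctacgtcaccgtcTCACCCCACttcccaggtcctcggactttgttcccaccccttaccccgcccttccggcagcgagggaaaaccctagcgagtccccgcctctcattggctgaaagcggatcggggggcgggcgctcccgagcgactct
The windows of the other 15 genes do not hold these letters on either strand, although all 16 genes rose.

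**Figure D3:**
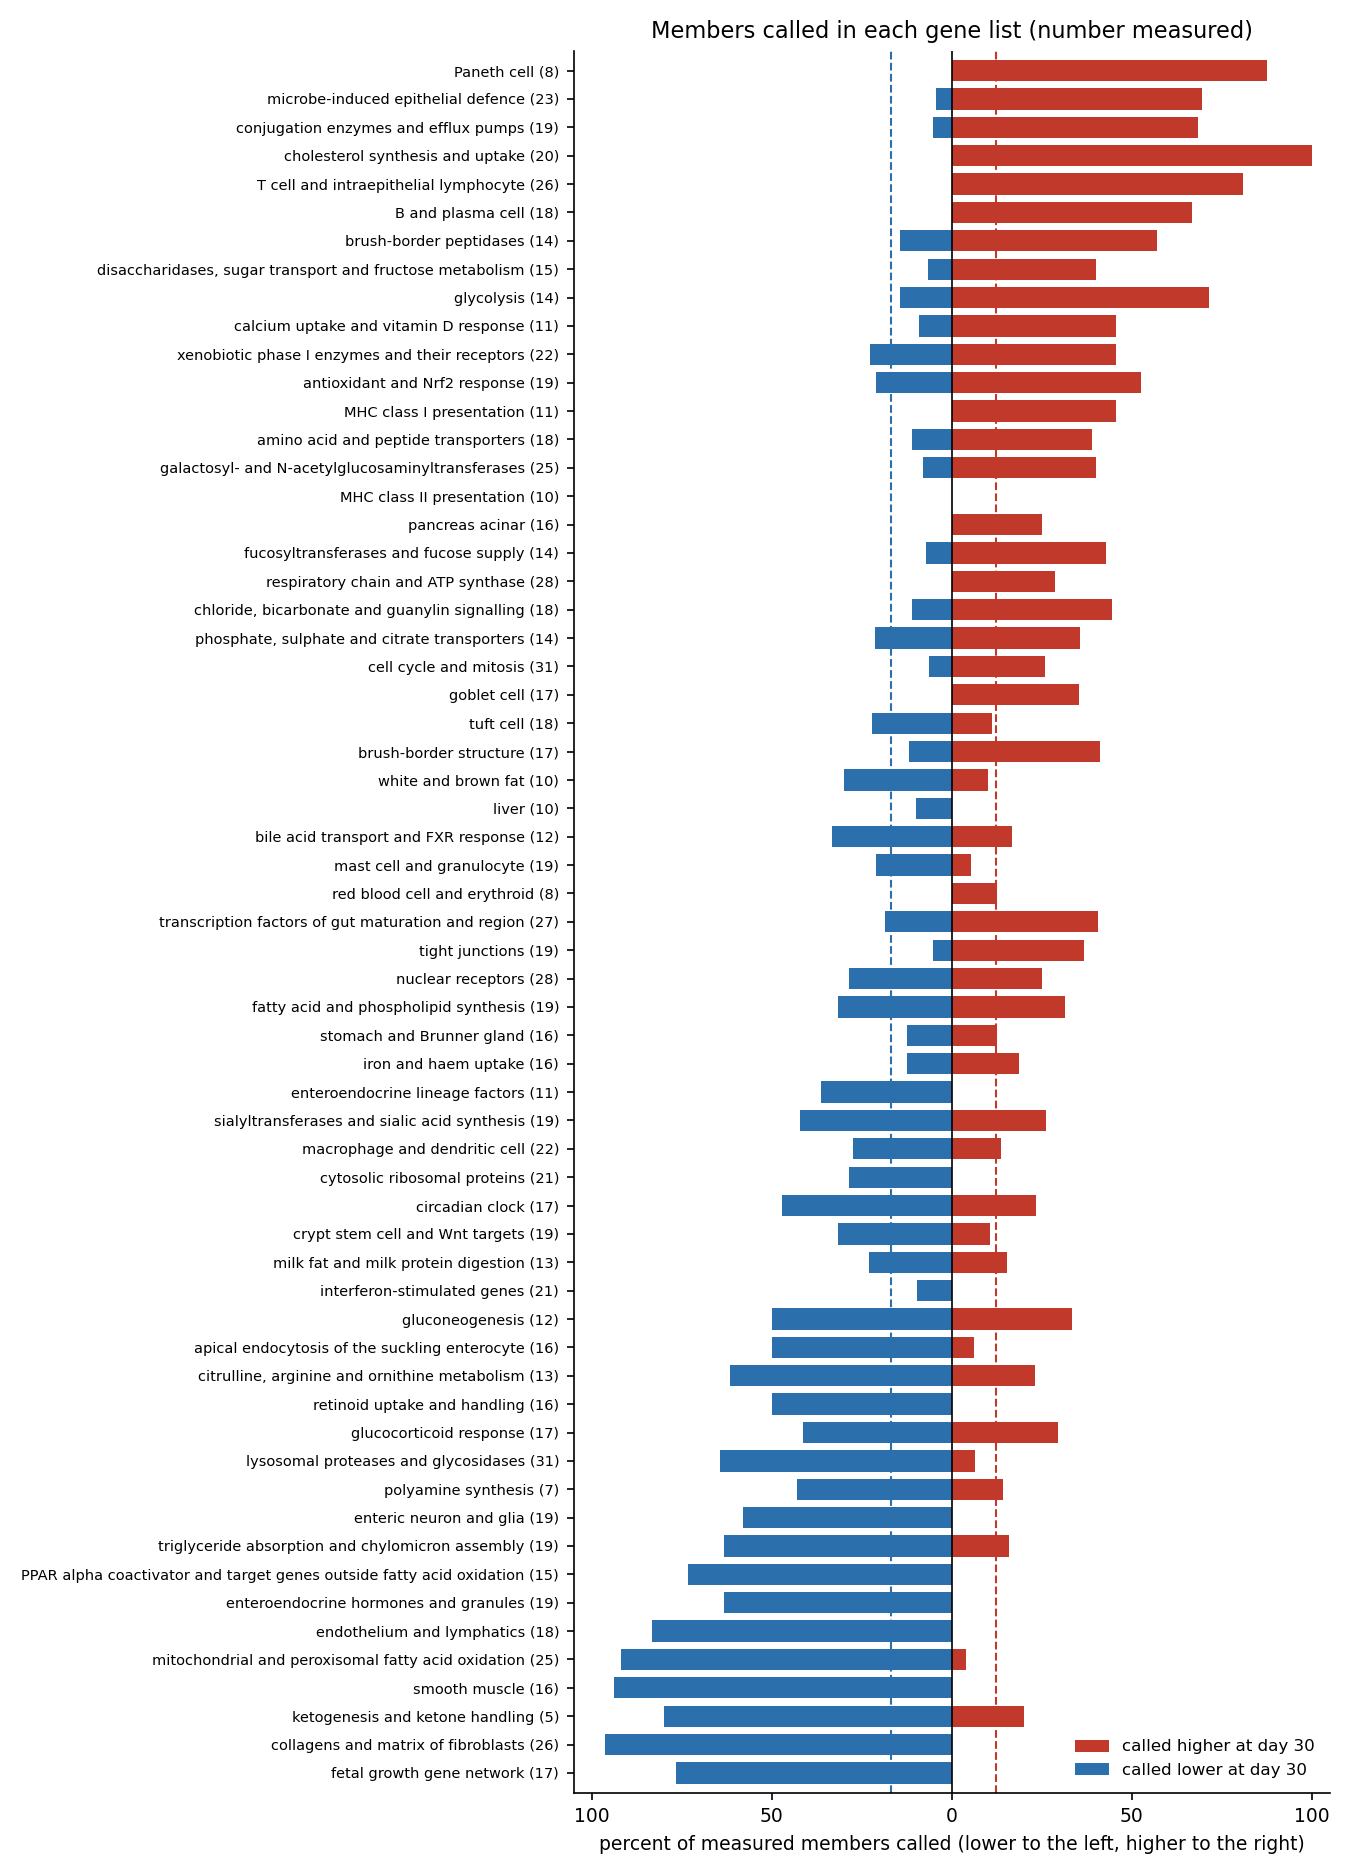
Percentage of measured members called higher (red, to the right) and lower (blue, to the left) at day 30 for each gene list, with the number measured. Dashed lines mark the share among all 19938 genes, 12.3% higher and 17% lower; cholesterol synthesis stands at 20 of 20 higher and the fibroblast matrix list at 25 of 26 lower.

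Protein digestion at the brush border rose in 8 of 14 peptidase genes and fell in 2. Enpep, the glutamyl aminopeptidase gene, went from 9.21, 9.34 and 9.10 to 11.28, 10.93 and 10.92. The meprin subunits parted, Mep1b rising by 1.06 while Mep1a fell as given above from 9.99, 10.31 and 10.24 to 6.69, 6.83 and 6.94. Dpp4, a dipeptidyl peptidase gene, rose by 0.92 and Anpep, aminopeptidase N, by 0.44. Transporters of the products rose in 7 of 18 and fell in 2, with Slc1a1, a glutamate transporter gene, higher by 1.07, the peptide transporter gene Slc15a1 by 0.43 and Slc16a10, an aromatic amino acid carrier gene, lower by 0.68.

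Genes of mineral transport changed in both directions. Trpv6, the apical calcium channel gene, went from 9.51, 9.28 and 8.88 to 11.19, 11.38 and 11.69, and Vdr, the vitamin D receptor gene, from 10.64, 10.37 and 10.15 to 11.98, 12.05 and 12.02. S100g, which ferries calcium across the cell, rose by 1.05, while Slc8a1, a sodium calcium exchanger gene, fell by 0.97. Of 11 calcium genes 5 rose and 1 fell. Phosphate and sulphate carriers held both extremes of the transporter family: Slc34a2 fell by 5.14, and Slc13a1, the sodium sulphate cotransporter gene, went from 10.06, 10.73 and 10.45 to 13.34, 13.47 and 13.35. Slc20a2, another phosphate carrier gene, fell by 0.79 and Slc26a6, an anion exchanger gene, rose by 1.58. Of 16 iron genes 3 rose and 2 fell, 31.2% called beside 29.3% of all genes. Slc11a2, the apical iron importer gene, fell by 0.62 and Slc40a1, ferroportin, had a change of -0.13 (adjusted p = 0.087).

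Bile acid genes fell in 4 of 12 and rose in 2. Abcb11, known as the bile salt export pump of liver, went from 7.60, 7.71 and 7.68 to 5.83, 5.56 and 5.52, and Nr0b2, a repressor gene induced by the bile acid receptor, fell by 0.75. Slc51a, part of the basolateral bile acid exporter, fell by 0.56, and Abcc3, a basolateral efflux pump gene, rose by 1.19. Chloride and bicarbonate genes rose in 8 of 18 and fell in 2. Slc4a4, a bicarbonate cotransporter gene, went from 10.15, 9.86 and 9.87 to 11.20, 11.41 and 11.26, Slc9a2, a sodium proton exchanger gene, rose by 1.25, and the carbonic anhydrase genes Car2 and Car4 by 0.89 and 0.88. Cftr, the chloride channel gene, had a change of -0.04 and was not called.

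The structural genes of the epithelium changed less. Of 17 genes of the brush-border scaffold 7 rose and 2 fell, with Krt20, a keratin of mature enterocytes, higher by 0.73. Tight junction genes rose in 7 of 19 and fell in 1. Claudins traded places: Cldn15 rose by 0.88 and Cldn3 by 0.63, Cldn2 fell by 0.57, and Cldn4 had a change of -0.10 and was not called.

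Genes that build the sugar chains of the epithelial surface differed by the sugar they attach. Among 19 sialyltransferase and sialic acid genes 8 fell, 5 of them at least 2-fold, and 5 rose. St3gal5, which makes the ganglioside GM3, went from 11.07, 11.27 and 11.47 to 7.24, 7.30 and 7.57, a 14.9-fold fall. St3gal4 fell by 2.52 and St3gal3 by 1.46. The log2 fold change of St3gal1 was -2.13, which becomes -1.19 when its features are averaged, whereas St6gal1, which links sialic acid differently, rose by 1.05. Fucosylation rose in 6 of 14 genes and fell in 1. Fut2, the fucosyltransferase gene of secretor type, went from 8.53, 8.70 and 8.85 to 11.30, 11.20 and 10.94, and Gmds, which starts the synthesis of GDP-fucose, rose by 1.43. Of 25 galactosyl- and N-acetylglucosaminyltransferase genes 10 rose and 2 fell. B3galt5 went from 6.75, 7.43 and 7.55 to 10.41, 10.63 and 10.61, B3gnt3, which extends O-glycans, rose by 2.29 and B4galt1, a galactosyltransferase gene, by 1.46.

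Defence against food chemicals rose in both phases. Of 22 oxidising enzymes and receptors 10 rose and 5 fell, and of 19 conjugation enzymes and efflux pumps 13 rose and 1 fell, with medians of 0.23 and 0.71. Cyp2b10, a P450 gene induced through the receptor CAR, went from 7.21, 6.57 and 6.44 to 10.06, 10.05 and 10.47, a 10.9-fold rise. Cyp1a1, the P450 gene induced through the aryl hydrocarbon receptor, went from 5.84, 5.82 and 6.05 to 8.17, 6.60 and 8.58, so replicate 2 of day 30 was far below the other day 30 pools, and with Xist as a covariate the change was 1.13 (adjusted p = 0.064). Adh4, an alcohol dehydrogenase gene, rose by 1.60 and Fmo5, a flavin monooxygenase gene, fell by 0.89. Gstm3, a glutathione transferase gene, went from 10.04, 9.68 and 9.28 to 11.29, 12.03 and 12.41, Sult2b1, a sterol sulphotransferase gene, rose by 1.54, Ugt2a3, a glucuronosyltransferase gene, by 1.39 and Abcb1a, an efflux pump gene, by 0.87.

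Antioxidant genes rose in 10 of 19 and fell in 4. The glutathione peroxidases parted, Gpx2 of the epithelium rising by 1.98 and the secreted Gpx3 falling by 2.21. Metal binding proteins fell, Mt2 from 12.27, 12.42 and 12.06 to 9.94, 9.61 and 10.69 and Mt1 by 1.11. Cat, catalase of the peroxisome, fell by 0.90.

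Of 27 transcription factor genes of gut maturation and region 11 rose and 5 fell, none of them 2-fold. Arid3a, a DNA-binding factor gene, fell by 0.84, and Prdm1, a repressor gene known from the suckling epithelium, by 0.63. Prdm1 lay at 8.74, 9.19 and 9.20 at day 15 and at 8.28, 8.48 and 8.48 at day 30. Klf4, a factor of differentiated and goblet cells, rose by 0.82, Tcf7l2, the Wnt effector gene, by 0.78, Gata4, the proximal gut factor gene, by 0.30 and Hnf4a by 0.23. Cdx2 had a change of -0.02 (adjusted p = 0.86), with all 6 arrays between 9.67 and 9.83. Among 28 nuclear receptor genes 7 rose and 8 fell, and the 3 that rose at least 2-fold were Vdr, Nr1d1 and Nr3c2, the mineralocorticoid receptor gene, which went from 8.57, 8.67 and 8.56 to 9.995, 10.29 and 10.24. Nr3c1, the glucocorticoid receptor gene, had a change of -0.10 (adjusted p = 0.33). Its response genes went both ways, with 5 of 17 higher and 7 lower: Fkbp5, a receptor co-chaperone gene, rose by 0.67, Tsc22d3, an anti-inflammatory leucine zipper gene, fell by 0.40 and Errfi1, an inhibitor of the epidermal growth factor receptor, by 0.88.

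Clock genes differed between the ages, although the hour of collection is not given in the labels and its part was not tested. Of 17 genes 4 rose and 8 fell. Nr1d1, which encodes the clock repressor REV-ERB alpha, went from 8.85, 8.73 and 8.61 to 10.17, 10.50 and 10.40, and Per1 from 8.83, 8.71 and 8.78 to 7.71, 8.29 and 7.93. Per2 fell by 0.93 and Bhlhe40, a clock repressor gene, by 0.76, whereas its relative Bhlhe41 rose by 0.75 and Dbp, an output factor gene, by 0.43. Per1 and Bhlhe41 are shown because they moved in opposite directions with an E-box, CACGTG, in each window, a choice made after their values were seen. The letters were in 33.3% of the 15 clock genes with a window and in 9.5% of all genes. Capitals mark the E-box, from RefSeq on GRCm38.p6, Per1 at chr11:69098699-69098948 on the plus strand and Bhlhe41 at chr6:145865421-145865670 on the minus strand.
Per1: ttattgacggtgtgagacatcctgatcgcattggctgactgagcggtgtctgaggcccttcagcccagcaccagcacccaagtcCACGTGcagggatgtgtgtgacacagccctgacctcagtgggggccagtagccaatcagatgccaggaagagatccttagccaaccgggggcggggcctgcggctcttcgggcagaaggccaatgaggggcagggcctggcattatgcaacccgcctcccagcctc
Bhlhe41: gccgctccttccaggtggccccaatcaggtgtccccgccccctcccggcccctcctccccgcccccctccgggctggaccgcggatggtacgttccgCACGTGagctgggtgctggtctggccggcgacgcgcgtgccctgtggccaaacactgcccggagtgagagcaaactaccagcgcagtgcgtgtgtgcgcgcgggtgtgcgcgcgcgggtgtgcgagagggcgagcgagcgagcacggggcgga
A further start of Per1 has a window that does not hold these letters.

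**Figure D4:**
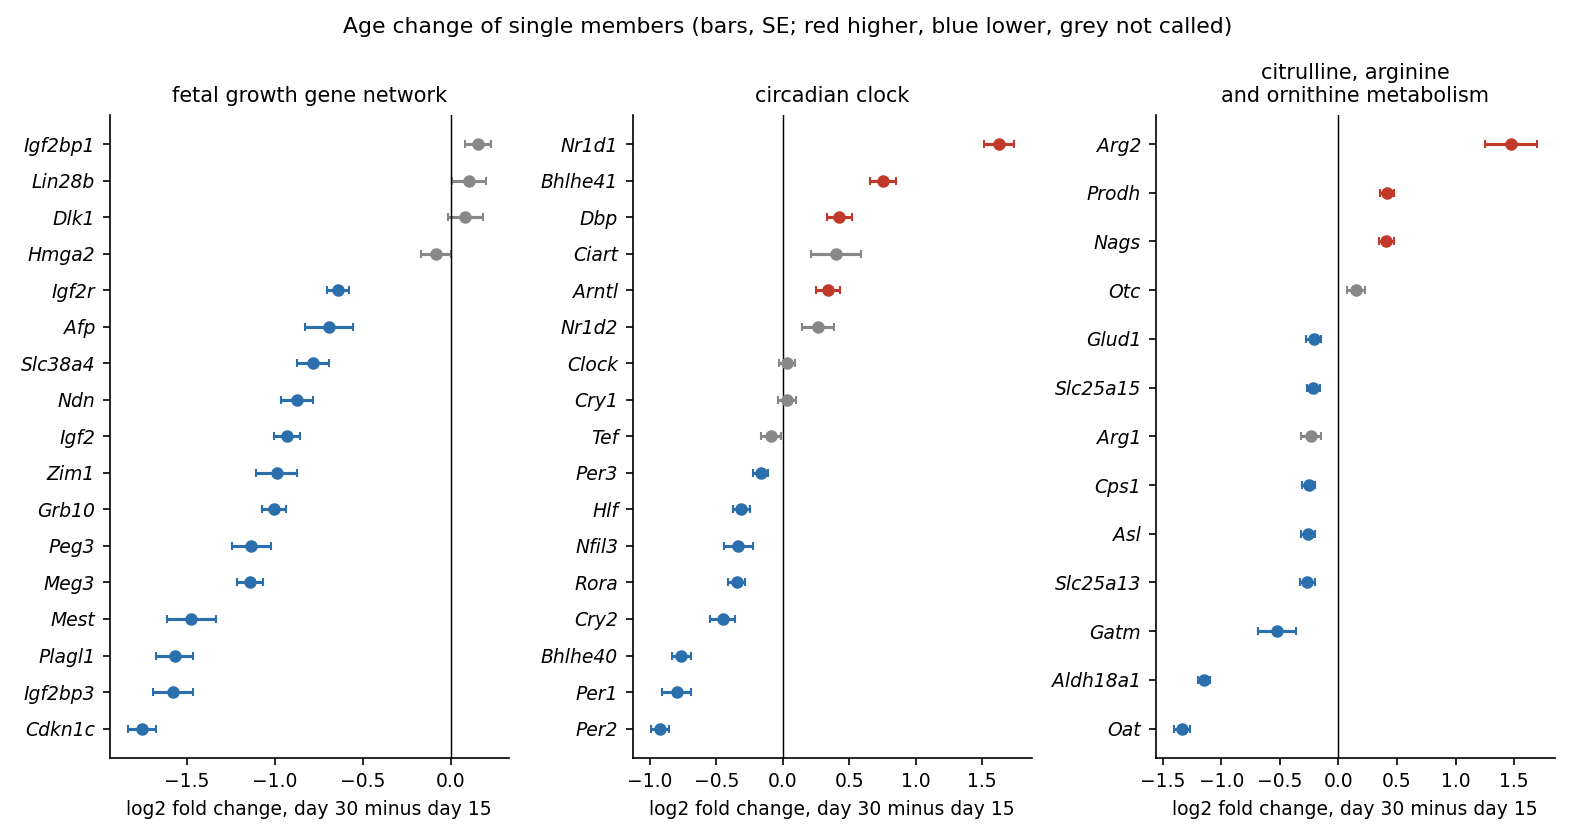
Log2 fold change from day 15 to day 30 (x axis) of every measured member of the fetal growth, circadian clock and citrulline and arginine lists, with the SE as bars, called rises in red, called falls in blue and genes not called in grey. The fetal growth genes run from -1.76 for Cdkn1c to 0.15 for Igf2bp1, while Nr1d1 at 1.63 and Arg2 at 1.47 stand apart above the rest of their lists.

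In the crypt, stem cell genes fell in 6 of 19 and rose in 2. Lgr5, the receptor gene of cycling stem cells, went from 8.36, 8.52 and 8.54 to 7.75, 7.74 and 7.94, Ephb3, a positioning receptor gene, fell by 0.57 and Nkd1, a Wnt feedback gene, by 0.49, while Ascl2 had a change of -0.22 (adjusted p = 0.12). Of 31 cell cycle genes 8 rose and 2 fell, so 32.3% were called, near the 29.3% of all genes. Plk1, a mitotic kinase gene, rose by 0.43 and Mki67 had a change of 0.12 (adjusted p = 0.16). Cytosolic ribosomal protein genes fell in 6 of 21 by at most 0.22, 28.6% called beside 29.3% of all genes. Polyamine synthesis changed in 4 of 7 genes, Azin1, an inhibitor of antizyme, rising by 0.66 and Oaz2, an antizyme gene, falling by 0.61.

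Paneth cell genes rose in 7 of 8, with a median of 1.25. Mmp7, which activates defensins, went from 8.38, 8.56 and 8.64 to 10.03, 10.13 and 10.11, Lyz1, lysozyme, from 12.73, 12.74 and 12.45 to 13.98, 13.91 and 14.03, and Defa24, an alpha-defensin gene, rose by 1.51. Probes of Defa24 can share signal with near-identical alpha-defensins. Itln1, a lectin gene, rose by 1.095. Goblet genes rose in 6 of 17, Muc2, the secreted mucin gene, by 0.32 and Muc3, a membrane mucin gene, by 0.88, while Tff3 and Agr2 had changes of 0.08 and -0.08 and were not called. Tuft genes went both ways, Plcg2, a phospholipase gene, rising by 1.097 and Hpgds, a prostaglandin synthase gene, falling by 1.16. In all 2 of 18 tuft genes were higher and 4 lower, so 33.3% were called, near the 29.3% of all genes.

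Hormone genes of enteroendocrine cells fell in 12 of 19 and rose in 0, with a median of -0.46. Gip, an incretin gene of the duodenum, went from 11.01, 10.93 and 10.88 to 10.01, 10.13 and 10.10, and Sst, somatostatin, from 10.50, 10.58 and 10.47 to 9.62, 9.77 and 9.75. Chga, a granule protein gene, fell by 0.87 and Pyy by 0.88. Cck, the hormone gene that drives gallbladder and pancreas, had a change of -0.11 (adjusted p = 0.3). Of 11 lineage factor genes 4 fell, Rfx6 by 0.82, Neurod1 by 0.53 and Isl1 by 0.52 among them.

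Genes that the epithelium expresses against microbes rose in 16 of 23 and fell in 1, with a median of 0.74. Reg3b, an antibacterial lectin gene, went from 10.84, 12.60 and 12.32 to 14.27, 14.21 and 14.20. Replicate 1 of day 15 lay far below the other day 15 pools, and the day 30 pools lay close together. Duox2, which makes hydrogen peroxide at the surface, went from 6.63, 6.91 and 6.65 to 8.80, 9.18 and 8.86, Il18, an epithelial cytokine gene, rose by 1.74, Pigr, the receptor gene that carries IgA to the lumen, by 1.24 and Ccl28, a chemokine gene that attracts IgA cells, by 1.19.

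Lymphocyte genes rose as well. Among genes of T cells and of lymphocytes within the epithelium 21 of 26 rose and 0 fell. Cd8a, the coreceptor gene of cytotoxic cells, went from 7.36, 7.37 and 7.09 to 9.27, 9.22 and 9.07, Cd7 rose by 1.91, Cd3e by 1.14 and Itgae, the integrin gene of intraepithelial cells, by 1.07. Of 18 B and plasma cell genes 12 rose and 0 fell. Igha, the IgA constant region, went from 6.90, 6.88 and 7.35 to 11.25, 11.28 and 11.51, a 19.7-fold rise, Ighm, that of IgM, rose by 3.08 and Pou2af1, a B cell coactivator gene, by 1.32. Ms4a1, the gene of the B cell antigen CD20, had a change of 0.12 at values between 5.06 and 5.36 (adjusted p = 0.4).

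Of 22 macrophage and dendritic cell genes 3 rose and 6 fell, with Lyz2, myeloid lysozyme, higher by 1.22 and Mrc1, a mannose receptor gene, lower by 0.59. Csf1r, the macrophage growth factor receptor gene, had a change of -0.14 and was not called. Among 19 mast cell and granulocyte genes 1 rose and 4 fell, 26.3% called beside 29.3% of all genes. Antigen presentation by MHC class II had 0 of 10 genes called in either direction. For class I 5 of 11 rose, led by Tap1 at 0.58 (adjusted p = 0.049), a call that was lost without any single wild type pool, at changes from 0.45 to 0.66 and adjusted p from 0.064 to 0.15. Interferon-induced genes fell in 2 of 21 and rose in 0: Ifit2 went from 10.13, 11.03 and 11.71 to 8.00, 7.56 and 8.50 and Ifit3 from 9.47, 10.25 and 10.90 to 7.85, 7.49 and 8.13. The pools of an age differed more on these genes than on most others, yet the ages did not overlap.

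**Figure D5:**
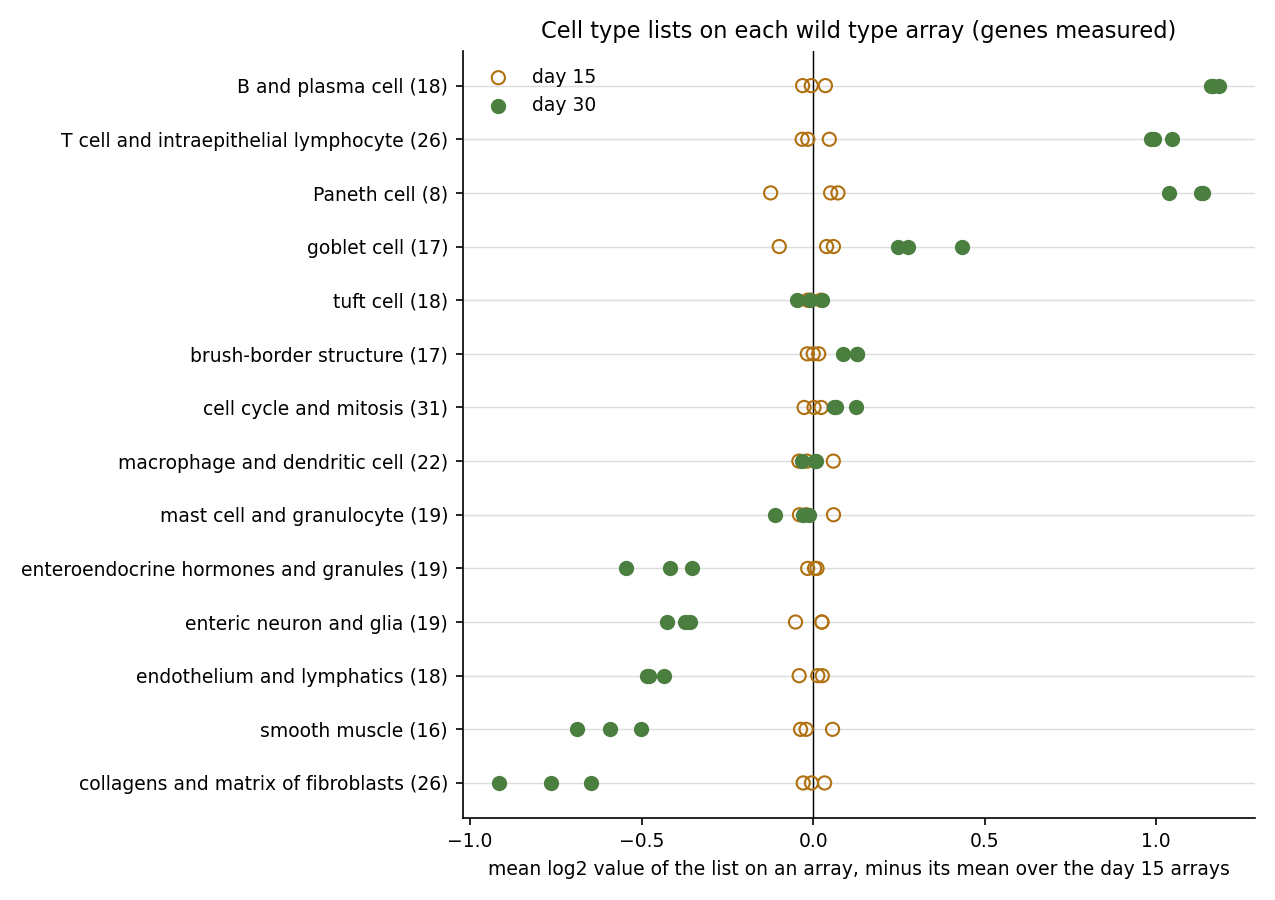
Mean log2 value over the measured members of each cell type list on each of the 6 wild type arrays, relative to the mean of the day 15 arrays, with an open point for each day 15 pool and a filled point for each day 30 pool. Paneth, T cell and plasma cell lists lie higher at day 30, the fibroblast, muscle, vessel and enteric nerve lists lower, and the tuft and macrophage lists overlap between the ages.

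Genes of the gut wall beneath the epithelium fell together. Of 26 collagen and matrix genes 25 fell and 0 rose, with a median of -0.81. Postn, a matrix protein gene of growing tissue, went from 10.20, 10.47 and 10.57 to 8.40, 8.96 and 8.62, and Col1a1 from 12.09, 11.91 and 11.98 to 11.01, 11.35 and 11.14. Fbn2, the fibrillin gene of developing fibres, fell by 1.28 and Eln, elastin, by 0.99. In smooth muscle 15 of 16 fell, with a median of -0.57, Acta2, the muscle actin gene, by 0.82 and Myh11, the smooth muscle myosin gene, by 0.90. Endothelial genes fell in 15 of 18, Tek, a vascular receptor gene, by 0.89 and Cdh5, the endothelial cadherin gene, by 0.81. Enteric neuron and glia genes fell in 11 of 19, Stmn2, a neuronal microtubule gene, by 0.91 and the glial gene S100b from 7.80, 8.13 and 8.24 to 6.13, 6.37 and 6.13. How much of the wall each segment held was not tested.

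Genes of neighbouring tissues differed in level. On the wild type arrays the acinar mean lay between 12.27 and 13.10, and the mean of the liver list between 5.99 and 6.17. Of 16 pancreatic acinar genes 4 rose and 0 fell, 25% called beside 29.3% of all genes. Prss3, a trypsinogen gene, went from 8.37, 8.60 and 8.77 to 10.81, 11.70 and 10.98, while Try4 and Try5 rose by 1.18 and 0.93. Muc5ac, a mucin gene of gastric surface cells, went from 7.13, 7.16 and 6.74 to 8.31, 10.15 and 8.12, a change of 1.85 that drops to 1.21 (adjusted p = 0.015) without replicate 2 of day 30, the pool with the highest mean of acinar genes. In all 2 of 16 stomach and Brunner gland genes rose and 2 fell, Cblif, gastric intrinsic factor, rising by 0.66. Of 10 liver genes 1 fell, Ttr, by 0.65, of 10 fat cell genes 1 rose and 3 fell, and of 8 red cell genes 1 rose. The shares called in the stomach and Brunner gland, liver and red cell lists were below the 29.3% of all genes. The share called in the fat cell list was above it.

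Families defined by gene symbol alone were counted too, beside 12.3% of all genes higher and 17% lower. Glutathione transferases changed in 17 of 22 genes (77.3%), 14 higher and 3 lower, carboxylesterases in 9 of 16, all higher, and glucuronosyltransferases in 5 of 8, all higher. Collagens fell in 17 of 44 (38.6%) and rose in 0, with Col12a1 lowest at -0.98. SOX factors fell in 6 of 21 and rose in 0, so 28.6% were called, near the 29.3% of all genes. Chemokines rose in 9 of 34 and fell in 5, from Ccl5 to Ccl11, an eosinophil chemokine gene that fell by 0.88. GIMAP genes, GTPases of lymphocytes, rose in 5 of 8. Killer cell lectin receptors rose in 7 of 23 and fell in 0, so 30.4% were called, near the share of all genes. Solute carriers rose in 84 of 362 and fell in 74, and P450 genes rose in 15 of 86 and fell in 17, so these families held large changes of both signs. HOX genes, which set position along the gut, changed in 3 of 38 (7.89%), and olfactory receptors, which the gut hardly expresses, in 6.52% of 1027, both below the 29.3% of all genes. The olfactory receptor calls were 64 rises and 3 falls, with a median change of 0.07 over the family beside 0.02 for all genes.

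The wild type change was set against the age axis of the knockout, built from the 6178 genes called with age in that genotype (31% of all) and without any wild type array. With the knockout day 15 mean at 0 and its day 30 mean at 1, the wild type pools stood at 0.08, 0.01 and -0.04 at day 15 and at 0.92, 0.92 and 0.90 at day 30. The knockout means are 0 and 1 by construction and the genes were chosen on the knockout arrays, so no difference between the genotypes is read from these positions. Of the wild type calls 74.9% were also called in the same direction in the knockout, and of the 410 genes with a 2-fold change 400 were. The difference between the age changes was called for 91 genes (0.456%), 45 more positive and 46 more negative in wild type. This count was 47 without replicate 2 of day 15 or without replicate 3 of day 30, and 60 without replicate 3 of day 15. Cyp4a31 fell by 4.12 in wild type and by 0.94 in the knockout, Abcb11 fell by 2.03 against a change of 0.01, and Defa24 rose by 1.51 against a change of 0.31 (adjusted p of the differences 9.3e-05, 1.2e-04 and 4.7e-04). The knockout mean of Abcb11 was 5.73 at day 15 and 5.75 at day 30, beside 7.67 and 5.63 in wild type. The knockout was thus already at the low level at day 15.

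Among the day 15 pools, replicate 1 lay most often nearest to day 30. Over the 410 genes with a 2-fold change, its value was the nearest of the 3 to day 30 for 243 genes (59.3%), against 110 for replicate 2 and 57 for replicate 3. At day 30 the counts were more even, 159, 122 and 129. Jchain and Reg3b ran the other way, being lowest in replicate 1 of day 15. Without that pool 5823 genes were called in place of 5849, and 5206 were shared in the same direction.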

How the data were processed

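The deposited table gives log2 expression for every feature of a mouse whole-transcript array. It came from Affymetrix Expression Console, version 1.1, by RMA, per the submitters' processing notes. That method removes background, sets the quantiles of all arrays equal and joins the probes of a feature. The base of the logarithm was taken as 2 from the method and the range, as the table does not state it. A genome build for the array is not given in the sources used. Per the labels, RNA was extracted with Trizol, pooled from 5 to 8 mice, and 5.5 micrograms were labelled with biotin. Quantile normalization removes a change shared by most genes, array signals flatten at both ends, and folds of very bright or dim genes are understated. The number of arrays limits the precision.

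There were 35557 features in the table. Of them, 21789 had 1 symbol, 1621 had more than 1 and 12147 were not listed with a gene. The first kind gave 19938 genes, 999 of them with several features. Entrez identifiers matched 21698 features to RefSeq.

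Group means of all 12 arrays were fitted with limma 3.58.1 in R 4.3.3 (lmFit, eBayes, 8 residual degrees of freedom), and p-values were adjusted by Benjamini-Hochberg over all genes. SE is the moderated standard error. The fit was checked on simulated data. The replicates are separate pools, so the spread combines pools and array noise. Members and lists (61 lists, 1064 of 1173 entries measured) were chosen with earlier results of these data known, and no list was tested as a set. Named genes were the 15 largest rises and 15 largest falls without overlap between ages, leaving out predicted genes and antigen receptor segments, the leading members of each list with up to 4 called members of smallest p, the extremes of each symbol family, the 10 named genes that differed most from the knockout, and Onecut2, Ada, Xist and Kdm5d. Genes of the tissue check were listed with them. Alternatives changed the moderation, the arrays fitted, array weights, the filter, the choice of feature, the centring, covariates for Xist and smooth muscle, the replicate block, single pools and the threshold.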

Additional observations from a re-analysis of the deposited data

Results flagged for a closer look

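Of the named genes whose age change differed from that of the knockout by limma's test of the difference (0.456% of all genes were called), the 10 with the smallest p are given. The 2 fatty acid hydroxylase genes fell more in wild type: for Cyp4a31 the difference was -3.19 (-4.12 in wild type, -0.94 in the knockout) and for Cyp4a10 it was -2.73 (-3.59 and -0.86). Abcb11, the bile salt pump gene, had a difference of -2.05 (-2.03 and 0.01), with a knockout mean of 5.73 at day 15 beside 7.67 in wild type. Cym, the milk-clotting protease gene, had a difference of -1.60 (-4.45 and -2.85). S100b of enteric glia had a difference of -1.65 (-1.85 and -0.20), and Slc16a10, the aromatic amino acid carrier gene, of -0.77 (-0.68 and 0.08). Mamdc4, an endocytic membrane protein gene of the suckling gut, fell less in wild type, with a difference of 2.25 (-1.76 and -4.01). Of 8 measured Paneth cell genes 3 had a called difference, of 1.20 for Defa24 (1.51 and 0.31), 0.92 for Lyz1 (1.33 and 0.41) and 0.70 for Itln1 (1.095 and 0.40), and the other 5, Mmp7 among them, did not. With 3 arrays a group, single arrays were not screened for outlying values.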

How the results depend on the processing

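The 5849 calls stayed between 4561 and 7365 in all alternatives but the stricter threshold (3978) and the covariates: 3829 genes were called with Xist as a covariate (1538 higher) and 108 with the smooth muscle mean (68 higher and 40 lower, all of them at least 2-fold). Rises numbered 4057 with arrays centred on their median, 5034 centred on ribosomal protein genes, and 1540 at an adjusted p under 0.01. Leaving out single wild type pools gave 4561 to 5823 calls, 1845 to 2488 higher and 2716 to 3335 lower, and for changes of at least 2-fold 191 to 208 higher and 197 to 254 lower. The 91 genes that differed from the knockout became 177 with an intensity trend, 155 with array weights, 159 in the upper level range, 33 with Xist, 39 with smooth muscle, 51 with the replicate block, 34 at the stricter threshold, and 47 to 85 without single pools. The causes were not tested, except that a stricter threshold or fewer arrays leave less to call.

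The labels do not say whether replicate numbers pair the pools. Deviations of same-numbered pools correlated at 0.29, 0.059 and 0.169, for each day 30 pool its highest value with a day 15 pool. Replicate 2 of day 15, however, correlated best with replicate 3 of day 30 (0.131). With the replicate number as a block 5463 genes were called, and 6 of the 331 named calls were lost.

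When the smooth muscle mean was the covariate, these named genes changed sign, each with an adjusted p of at least 0.45: Asl 0.0003, Ctsw -0.19, Cyp1a1 -0.50, Des 0.18, Fgf15 -0.11, Foxd2 -0.40, Foxp2 0.12, Hoxa10 -0.0037, Klf1 -0.22, Mrc1 0.14, Mrpl23 0.27, Nkx2-2 0.0145, Oaz2 0.18, Per1 0.0148, Rpl30 0.42, Rps9 0.0078, Smox 0.31, Vmn2r60 -0.32 and Xist 0.89. Xist went to 0 as its own covariate. No called named gene changed sign under the other alternatives. Dim probes limit what could be called, with 8.89% of the lowest of 4 level groups called.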

Other observations

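Counts for further symbol families follow. Mitochondrial ribosomal protein genes rose in 11 of 77 and fell in 1, and proteasome subunit genes rose in 7 of 50 and fell in 0, beside 12.3% of all genes called higher. Cathepsin genes, lysosomal proteases, fell in 8 of 21 and rose in 2, from Ctsl at -1.54 to Ctsw of killer lymphocytes at 0.77. Potassium channel genes fell in 13 of 91 (14.3%) and rose in 6 (6.59%), both below the 17% and 12.3% of all genes, with Kcnt2, a sodium-activated channel gene, lowest at -1.47. It lay at 7.22, 7.82 and 7.82 at day 15 and at 5.88, 6.32 and 6.23 at day 30. Forkhead factor genes rose in 5 of 44 (11.4%) and fell in 6 (13.6%), Foxp2 by 0.75, also below those shares of all genes. Krüppel-like factor genes rose in 5 of 17 (29.4%) and fell in 3 (17.6%).

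Steroid enzymes held a wide spread. Of 19 hydroxysteroid dehydrogenase genes 5 rose and 6 fell, from Hsd17b6 at 3.67 to Hsd3b3 at -2.90. Hsd3b3 lay at 8.47, 8.40 and 8.12 at day 15 and at 5.58, 5.43 and 5.30 at day 30, with no overlap. Killer cell lectin receptors, which guide natural killer and some T cells, had their largest rise in Klra5, from 4.33, 4.58 and 4.51 to 5.78, 6.07 and 5.88.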
